A study of Mus musculus with 15 samples.

Results

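Ribosome biogenesis, the assembly of ribosomes in the nucleolus, is represented here by 53 genes, among them Myc, the transcription factor known for driving many of the others. The genes were taken by symbol from the 55487 mouse genes of the deposited tables, and each symbol matched 1 row. The data are RNA sequencing of fetal liver erythroid progenitors at E12.5, strain 129S6/SvEvTac. Group 1 of mice holds 3 wildtype and 3 mutant libraries from polyA RNA, and group 2 (total RNA) comprises 3 libraries each of wildtype, mutant and low-yield mutant. The mutants carry a mutation of Rpl5, a large subunit ribosomal protein gene. The sample table deposited for group 2 gives the mutants as Rpl5plusSkax23Jus, read here as the Skax23Jus allele over a wildtype copy, and that for group 1 says only mutant or wildtype. What "low-yield" means is not defined in the labels, and nothing in them says whether the replicates are separate embryos or litters, so p-values measure only the spread between these libraries.

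Ribosomal RNA is transcribed by RNA polymerase I, modified by small nucleolar ribonucleoproteins (snoRNPs) and folded around ribosomal proteins by a large set of assembly factors, which form a small and a large subunit along separate routes. Erythroid progenitors make ribosomes at a high rate while they divide and lower that rate as they mature. Loss of a single copy of a ribosomal protein gene such as RPL5 is a known cause of Diamond Blackfan anemia syndrome, a failure of red cell production named in the title of the series. The 53 genes were sorted by role into RNA polymerase I transcription (5), rRNA modification (12), nucleolar chaperones (3), the small subunit processome that handles the early precursor (13), late small subunit maturation (6), large subunit assembly (13) and Myc (1).

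Levels are given as CPM, the counts of a library divided by its TMM-adjusted size, and never compared between the groups of mice. Group 1 libraries held 48510828 to 58513669 counts and those of group 2 held 24954324 to 44827821. Rpl5 itself lay between 656 and 744 CPM in wildtype and 520 and 570 CPM in mutant libraries of group 1. In group 2 it lay between 303 and 374 CPM for wildtype, 232 and 248 for mutant and 219 and 278 for low-yield mutant libraries, so each mutant library had less than each wildtype library of its group. All 10 markers of erythroid progenitors were above 1 CPM in every library. All 53 members passed the filter on low counts in both groups. Per kilobase of exon, all 53 had a mean wildtype level above the median of the genes tested in both groups, and 34 in group 1 and 27 in group 2 were above its 90th percentile. Npm1 was highest, with 1294 ± 101 CPM per kilobase (SD, n = 3) in group 1 and 553 ± 59.8 in group 2. Taf1b was lowest in group 1 (6.68 ± 0.54) and Dimt1 in group 2 (4.91 ± 1.25).

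Most of the 53 genes were somewhat higher in mutant than in wildtype progenitors, and none was called lower. In group 1, 15 of 53 were called, all higher, while 5.79% of all genes tested were called higher and 6.78% lower. Upper-quartile scaling turned that balance, with 1006 genes called higher and 802 lower, and called 25 members. A gene is said to be called, to rise or to fall where edgeR's quasi-likelihood test gave an adjusted p under 0.05 over all genes tested. The log2 fold change was above 0 for 49 of the 53, with a median of 0.18, while over all genes 51.1% were above 0 and the median was 0.01. The RNA of the called members rose by between 19.6% and 51.3% in level. With the replicate number as a block, a pairing that the labels do not state, 23 members were called, all higher, against 10.5% of all genes called higher. Nhp2, Nop2, Ncl, Nop14, Utp4, Wdr75, Mphosph10 and Ebna1bp2 were added and none was lost. Without mutant replicate 3 or wildtype replicate 2 the number of members called was 5 or 7, and without mutant replicate 2 it was 30.

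In group 2, 7 of 53 members were called between mutant and wildtype, again all higher, while of all genes 3.32% were called higher and 2.95% lower. Of the 53, 47 had a log2 fold change above 0, with a median of 0.19, beside 48.7% and a median of -0.01 over all genes. The low-yield mutant had 18 called, all higher, while of all genes 6.68% were called higher and 5.86% lower, and 50 were above 0, with a median of 0.27, beside 49.6% and a median of 0.00. These comparisons share their wildtype libraries and are not independent of each other. Scaling by library size alone put 65% of all calls in the low-yield mutant on the higher side, beside 53.3% with TMM, and called 31 members, none of them lower. In the other mutant it called 610 genes higher and 380 lower, and 14 members. Counts in group 2 leaned on single libraries. The mutant count was 3 without wildtype replicate 2, wildtype replicate 3, mutant replicate 1 or mutant replicate 3, 12 without mutant replicate 2 and 17 without wildtype replicate 1. The low-yield count was 7 without low-yield replicate 1 or low-yield replicate 2, and without a wildtype library it was 8 (replicate 3), 10 (replicate 2) or 36 (replicate 1).

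Polr1a, Utp20, Wdr43, Heatr1 and Rrp12 were called against wildtype in all 3 comparisons. Such calls were not counted over all genes, and the group 2 comparisons use the same wildtype libraries. The 7 members called in the group 2 mutant include 5 of the 15 called in group 1, that is 71.4% of the shorter list and 33.3% of the longer. The low-yield mutant shared 11 with group 1, which is 61.1% of its own 18 and 73.3% of the 15. Neither overlap was counted over all genes, so these shares cannot be set beside those of genes in general. A log2 fold change above 0 in all 3 comparisons was found for 46 members, and this was not counted over all genes. Only Ubtf and Utp3 were below 0 in all 3, neither of them called, and the sign was mixed for Taf1b, Nop56, Noc4l, Imp3 and Myc. Over both groups of mice, with the group as a block and the low-yield libraries left out, 25 members were called, all higher, while 9.8% of all genes were called in each direction. Of the 53, 50 were above 0 (49.9% of all genes) and the median was 0.19. That count was 16 without group 1 wildtype replicate 2. In the interaction of genotype with the group of mice 0.0188% of all genes and 0 members were called, 25 members were above 0 beside 54.3% of all genes, with 0 members at an unadjusted p under 0.05 by edgeR and 0 called by DESeq2.

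**Figure D1:**
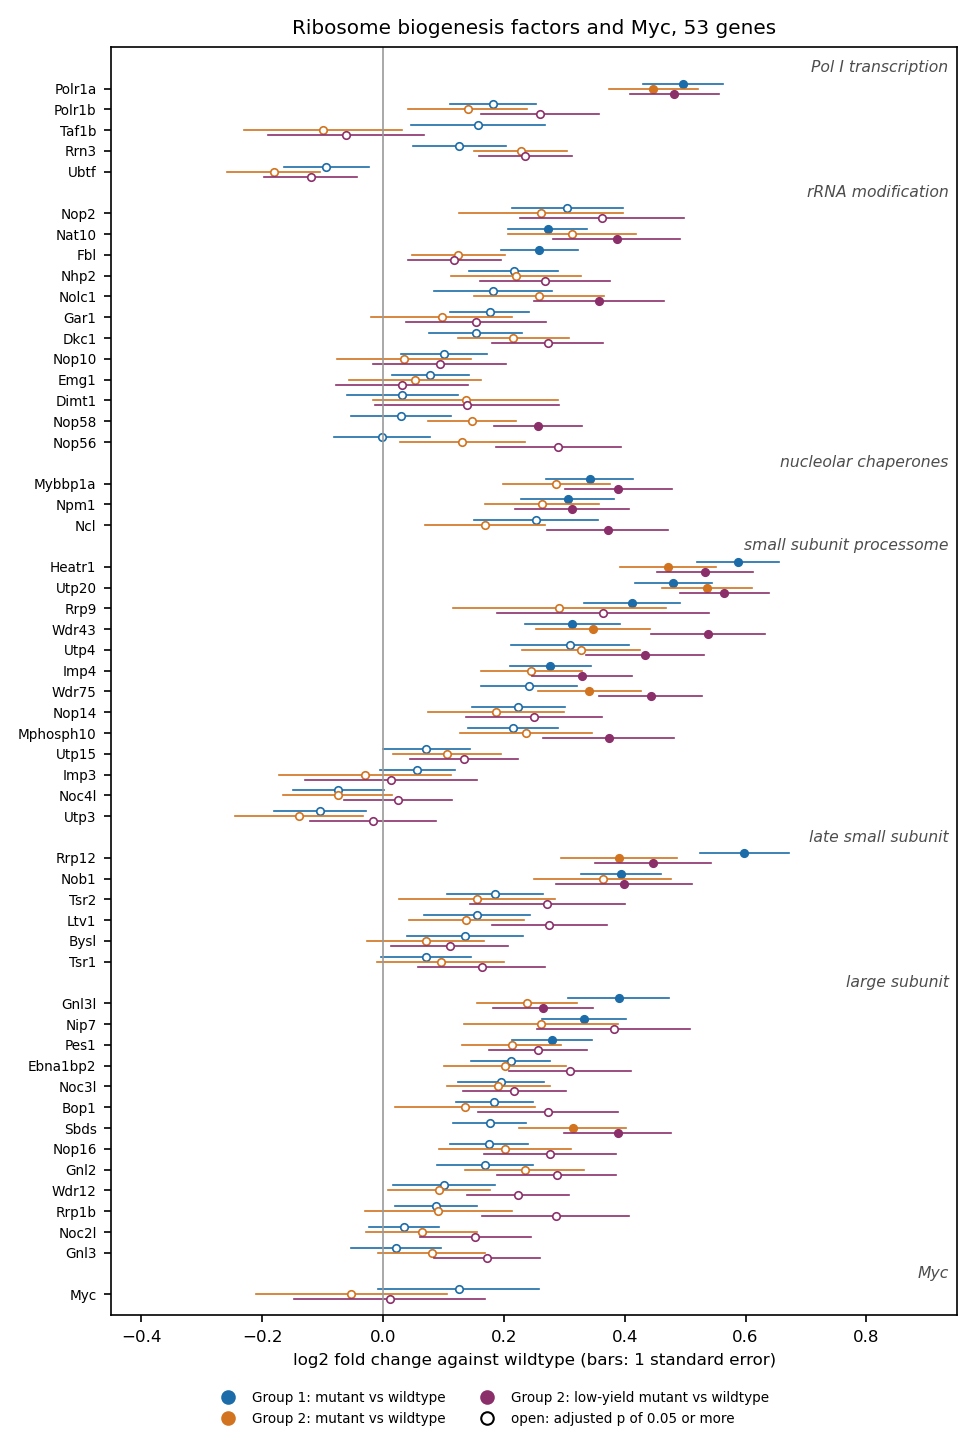
Log2 fold change against wildtype of each of the 53 genes (x axis), arranged by role, in the group 1 mutant, group 2 mutant and group 2 low-yield mutant; points are the edgeR estimates, bars 1 standard error, and filled points have an adjusted p under 0.05. Filled points number 15, 7 and 18 in this order, all to the right of 0, while Ubtf and Utp3 lie to the left of 0 in all 3 comparisons.

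Short stretches upstream of some members are shown as a description of sequence, some of them picked after the results were seen. Myc is known to bind the E-box CACGTG, but neither binding nor Myc activity was measured here. The windows from 250 bases before to 50 after the annotated start, from RefSeq on GRCm38.p6, matched 45 of the 53 members; Fbl, Npm1, Rrp12, Bop1, Gnl2, Gnl3l, Sbds and Myc had no window. On either strand, the palindrome CACGTG was found in 11 of 45 (24.4%), beside 8.09% of 27025 genes with a window. Those 27025 were not limited to the genes tested here or to genes of like level, so the shares are not of like sets. The ETS-type motif CCGGAAG, searched on both strands, was found in 17 of 45 (37.8%), beside 9.93%. A match is a description of the letters and no evidence of binding. Of the 12 E-box matches 4 lay before the start and 8 after it, and of the 25 ETS-type matches 19 lay before and 6 after. The stretches are written 5′ to 3′ on the strand of the gene, with the E-box and the ETS-type motif in capitals. Rrn3, Imp4 and Nop2 have an E-box upstream of the start, and Nop2 also has the ETS-type motif beside it. Rrn3 has the ETS-type motif as well, on the opposite strand, 19 bases after the start and from 5 bases before it, where the match runs past the end of the stretch and is not in capitals. The Imp4 stretch also lies in an exon of Gm28306 on the opposite strand.
Rrn3 (chr16:13780569-13780698, + strand): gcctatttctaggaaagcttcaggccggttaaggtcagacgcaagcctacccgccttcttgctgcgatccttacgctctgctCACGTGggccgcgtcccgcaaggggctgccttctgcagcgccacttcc
Imp4 (chr1:34439699-34439828, + strand): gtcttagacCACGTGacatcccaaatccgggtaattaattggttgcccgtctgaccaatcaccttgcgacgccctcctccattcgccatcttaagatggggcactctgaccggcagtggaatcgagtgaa
Nop2 (chr6:125131753-125131882, + strand): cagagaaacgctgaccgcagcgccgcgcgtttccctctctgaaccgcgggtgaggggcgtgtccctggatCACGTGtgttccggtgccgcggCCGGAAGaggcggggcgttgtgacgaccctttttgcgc
Of the leading members, Heatr1 has the ETS-type motif just before its RefSeq start, Polr1a has neither motif in its window, and Utp20 has none upstream but an E-box just after the start.
Heatr1 (chr13:12395345-12395374, + strand): gccgtagtgagaagCCGGAAGttcctatga
Polr1a (chr6:71908933-71909052, + strand): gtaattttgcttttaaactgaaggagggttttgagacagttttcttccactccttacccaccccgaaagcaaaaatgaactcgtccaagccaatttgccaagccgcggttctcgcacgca
Utp20 (chr10:88826815-88826934, - strand): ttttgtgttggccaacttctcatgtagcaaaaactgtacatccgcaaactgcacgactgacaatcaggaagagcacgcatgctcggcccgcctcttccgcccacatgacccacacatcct
For the genes shown, the RefSeq and GENCODE starts lie within 28 bases of each other, except that the GENCODE starts of Heatr1 and Wdr43 lie 348 and 320 bases farther upstream, so that both their stretches fall inside the GENCODE gene. The E-boxes after the start are shown for Utp20, Wdr43, Utp4 and Mybbp1a, with the bases that flank them.
Utp20 site (chr10:88826768-88826781, - strand): actaCACGTGagga
Wdr43 site (chr17:71616228-71616241, + strand): cgaaCACGTGgctg
Utp4 site (chr8:106893651-106893664, + strand): cgcgCACGTGgggc
Mybbp1a site (chr11:72441363-72441376, + strand): agccCACGTGtttg
Among the 11 members with an E-box, 5 were called in group 1, 2 in the group 2 mutant, 5 in the low-yield mutant and 8 over both groups. Among the 34 with a window and no E-box these counts were 6, 3, 9 and 11. Of all genes 5.79%, 3.32%, 6.68% and 9.8% were called higher in these. The median log2 fold change over both groups was 0.26 with an E-box and 0.15 without, and no test was made of that difference. With the ETS-type motif 8 of 17 were called over both groups, and without it 11 of 28, with medians of 0.19 and 0.18.

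RNA polymerase I transcribes the rRNA precursor, and of its 5 members Polr1a, the catalytic core subunit, rose in each comparison. Its level was 158, 162 and 163 CPM in group 1 wildtype and 235, 208 and 238 in mutant libraries. Group 2 showed 310.5, 315 and 295 for wildtype, 417, 404 and 434 for mutant and 444, 439.7 and 403 for low-yield libraries. Each mutant library exceeded each wildtype library of its group. Its log2 fold change was 0.50 (SE 0.07, adjusted p 0.000795) in group 1, 0.45 (SE 0.07, adjusted p 0.00269) for the group 2 mutant and 0.48 (SE 0.07, adjusted p 0.000727) for its low-yield mutant, and the call was kept under each alternative run. Polr1a shares exon sequence with Gm26628 on the opposite strand.

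The other members of that arm behaved differently from one another. Rrn3, which brings the polymerase to the promoter, was called only over both groups (0.18, SE 0.06, adjusted p 0.0494), a call that ended without any of 9 of the 12 libraries (adjusted p up to 0.11). Polr1b, the second largest subunit of the polymerase, had log2 fold changes of 0.18, 0.14 and 0.26, none called as fitted here. The replicate block called it in the low-yield mutant and over both groups. Ubtf, the factor that holds rRNA genes in an active state, leaned the other way. It had 469, 455 and 415 CPM in wildtype and 448, 389 and 417 in mutant libraries of group 1, which overlap. Among group 2 libraries the wildtype had 583, 539 and 517, the mutant 513, 449 and 483 and the low-yield mutant 514, 494 and 499.8, where each mutant library was below each wildtype library. Its log2 fold change was -0.09, -0.18 and -0.12 in the 3 comparisons and -0.14 (SE 0.06, adjusted p 0.116) over both groups. It was called lower over both groups only with the replicate block (-0.14, SE 0.05, adjusted p 0.0463) or without group 1 mutant replicate 1 (-0.17, SE 0.06, adjusted p 0.0447). Taf1b, a subunit of the promoter selectivity factor, was listed at 0.16, -0.10 and -0.06, not called.

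Of the 12 rRNA modification genes, 2 were called in group 1, 0 in the group 2 mutant, 3 in the low-yield mutant and 3 over both groups, all higher. Of all genes 5.79%, 3.32%, 6.68% and 9.8% were called higher in these. In the group 2 mutant 3 of the 12 had an unadjusted p under 0.05 by edgeR, beside 3071 of all 15024 genes. Nat10, which acetylates cytosines of rRNA, had 214, 206 and 207 CPM in wildtype and 269, 233 and 256 in mutant libraries of group 1. Levels in group 2 were 301, 265 and 233 for wildtype, 358, 294 and 339 for mutant and 357, 376 and 311 for low-yield libraries. Mutant and wildtype were separate in group 1, as were low-yield mutant and wildtype, while group 2 wildtype library 1 lay above mutant library 2. On the log2 scale the fold change was 0.27 (SE 0.06, adjusted p 0.0185) in group 1 and 0.39 (SE 0.11, adjusted p 0.0254) in the low-yield mutant, both called, and 0.31 (SE 0.11, adjusted p 0.0953) in the group 2 mutant.

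Fbl is fibrillarin, the methyltransferase of the box C/D snoRNPs. It had 402, 398 and 398 CPM in wildtype and 484, 441 and 507 in mutant libraries of group 1, which were separate (0.26, SE 0.06, adjusted p 0.0215). Its group 2 levels were 427, 373 and 395 for wildtype, 448, 414 and 439 for mutant and 433, 450.2 and 413 for low-yield libraries, and there the groups overlapped (log2 fold changes 0.12 and 0.12). Its partners in the same particle, Nop56 and Nop58, showed little difference in group 1 (0.00 and 0.03). Nop56 stood at 0.13 in the group 2 mutant and 0.29 (SE 0.10, adjusted p 0.0803 by edgeR) in the low-yield mutant, where it was called with the replicate block (adjusted p 0.0273). Nop58 had 728, 667 and 654 CPM in wildtype and 722, 609 and 761 in mutant libraries of group 1, with wildtype and mutant interleaved. In group 2 it had 286, 274 and 294 for wildtype, 333, 301 and 313 for mutant and 329, 348 and 343 for low-yield libraries, both mutant groups lying above wildtype. Only the low-yield mutant was called (0.26, SE 0.07, adjusted p 0.031). Its difference from the other mutant (0.11, SE 0.07) was not, nor was the interaction of Nop58 with the group of mice, which leaves out the low-yield libraries (0.14, SE 0.13).

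The proteins of the box H/ACA snoRNPs, which turn uridine into pseudouridine, passed in no comparison as fitted here. Each of Nhp2 and Dkc1 was called in some comparison under 12 of the alternatives, Gar1 under 4 and Nop10 under 0. With the replicate block Nhp2 was called in group 1 (adjusted p 0.0219 by edgeR), and Nhp2 and Dkc1 in the low-yield mutant and over both groups. Dkc1, the pseudouridine synthase, had log2 fold changes of 0.15, 0.22 and 0.27, Nhp2 of 0.22, 0.22 and 0.27, Gar1 of 0.18, 0.10 and 0.15, and Nop10 of 0.10, 0.03 and 0.09. All 12 values were above 0. Nolc1, a phosphoprotein that accompanies both kinds of snoRNP, rose in the low-yield mutant (0.36, SE 0.11, adjusted p 0.0407), and the rRNA methyltransferase Nop2 over both groups (0.28, SE 0.10, adjusted p 0.0493), a call lost on leaving out any of 9 of the 12 libraries. The methyltransferases Dimt1 and Emg1 of the small subunit rRNA were between 0.03 and 0.14 and between 0.03 and 0.08, and were not called. The calls of Nat10 and Fbl in group 1 ended without wildtype replicate 2, wildtype replicate 3 or mutant replicate 3, that of Fbl also without wildtype replicate 1. The low-yield calls of Nat10, Nolc1 and Nop58 ended without wildtype replicate 2, wildtype replicate 3, low-yield replicate 1 or low-yield replicate 2, those of Nolc1 and Nop58 also without mutant replicate 3 and that of Nop58 without low-yield replicate 3.

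The 3 nucleolar chaperones were among the most abundant members, and all were called in the low-yield mutant and over both groups. Of all genes 6.68% and 9.8% were called higher in these. Npm1 (nucleophosmin) had 3756, 3337 and 3252 CPM in wildtype and 4371, 3910.5 and 4502 in mutant libraries of group 1. Group 2 showed 1646, 1332 and 1448 for wildtype, 1876, 1616 and 1818 for mutant and 1809, 1990.1 and 1695 for low-yield libraries. Wildtype library 1 of group 2 was above mutant library 2, and elsewhere the mutants were the higher. By edgeR the log2 fold change was 0.31 (SE 0.08, adjusted p 0.0235) in group 1, 0.26 (SE 0.09, adjusted p 0.117) for the group 2 mutant and 0.31 (SE 0.09, adjusted p 0.0418) for its low-yield mutant. Processed copies of Npm1 took 1.38% of the counts of gene and copies in group 1.

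Mybbp1a, a nucleolar protein that takes part in rRNA transcription and processing, showed the clearest separation of the chaperones. It had 902, 857 and 868 CPM in wildtype and 1177, 994 and 1159 in mutant libraries of group 1. Among group 2 libraries the wildtype had 1425, 1310.3 and 1204, the mutant 1719.9, 1457 and 1628 and the low-yield mutant 1758, 1800.0 and 1601. No mutant library overlapped the wildtype libraries of its group. The log2 fold change was 0.34 (SE 0.07, adjusted p 0.00997) in group 1, 0.29 (SE 0.09, adjusted p 0.0689) for the group 2 mutant and 0.39 (SE 0.09, adjusted p 0.00938) for its low-yield mutant.

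Ncl (nucleolin), which binds the rRNA precursor, had 6633, 5816 and 5763 CPM in wildtype and 8031, 6123 and 7547 in mutant libraries of group 1, with wildtype library 1 above mutant library 2 and each mutant library above the wildtype library of its number. Levels in group 2 were 2046, 1846 and 1854 for wildtype, 2353, 1978 and 2129 for mutant and 2549.8, 2770.2 and 2116 for low-yield libraries, and only the low-yield libraries were clear of wildtype. Ncl was called in the low-yield mutant (0.37, SE 0.10, adjusted p 0.0237) but not in the group 2 mutant (0.17, SE 0.10, adjusted p 0.378). In group 1 it was not called (0.25, SE 0.10, adjusted p 0.143), except with the replicate block (0.25, SE 0.07, adjusted p 0.0199). The group 1 calls of Npm1 and Mybbp1a ended without wildtype replicate 2 or mutant replicate 3, and that of Npm1 without wildtype replicate 3. The 3 calls of the low-yield mutant ended without wildtype replicate 3, low-yield replicate 1 or low-yield replicate 2, those of Npm1 and Ncl also without wildtype replicate 2 and that of Npm1 without mutant replicate 3 and in a fit of the 2 groups alone.

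The small subunit processome, which forms on the early rRNA precursor, held the most calls of any arm. Of its 13 genes 5 were called in group 1, 4 in the group 2 mutant, 7 in the low-yield mutant and 8 over both groups, all higher. Of all genes 5.79%, 3.32%, 6.68% and 9.8% were called higher in these. Heatr1, a large scaffold protein needed for rRNA transcription and early processing, had 164, 161 and 171 CPM in wildtype and 260.2, 227 and 258 in mutant libraries of group 1. Its group 2 levels were 288, 260.2 and 253 for wildtype, 375, 342 and 393 for mutant and 388, 395 and 378 for low-yield libraries. The lowest mutant library was above the highest wildtype library in both groups. Its log2 fold change was 0.59 (SE 0.07, adjusted p 0.000381) in group 1, 0.47 (SE 0.08, adjusted p 0.00316) for the group 2 mutant and 0.53 (SE 0.08, adjusted p 0.000609) for its low-yield mutant. Its exons overlap those of Lgals8 on the opposite strand.

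Utp20, another very large scaffold protein of the processome, had 146, 151 and 149.9 CPM in wildtype and 224, 197 and 203 in mutant libraries of group 1. In group 2 it had 216, 236 and 234 for wildtype, 322, 323 and 349 for mutant and 339.6, 349 and 326 for low-yield libraries. Again no mutant library overlapped wildtype. On the log2 scale the fold change was 0.48 (SE 0.06, adjusted p 0.000795) in group 1, 0.54 (SE 0.07, adjusted p 0.000898) for the group 2 mutant and 0.57 (SE 0.07, adjusted p 0.000259) for its low-yield mutant. The calls of Heatr1 and Utp20 were kept under each alternative run in all 3 comparisons.

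Wdr43 and Wdr75 belong with Heatr1, Utp4 and Utp15 to the subcomplex that binds the precursor first. Wdr43 was called in each comparison, with log2 fold changes of 0.31 (SE 0.08, adjusted p 0.0226) in group 1, 0.35 (SE 0.09, adjusted p 0.041) for the group 2 mutant and 0.54 (SE 0.09, adjusted p 0.00192) for its low-yield mutant. Wdr75 was called in both mutant groups of group 2 (0.34 and 0.44) and stood at 0.24 (SE 0.08, adjusted p 0.0674) in group 1, where it was called with the replicate block. Utp4 rose in the low-yield mutant (0.43, SE 0.10, adjusted p 0.00909), while Utp15 lay between 0.07 and 0.13 and was called nowhere. The low-yield calls of Wdr43 and Wdr75 were kept under each alternative run. In the group 2 mutant both ended without wildtype replicate 2, wildtype replicate 3, mutant replicate 1 or mutant replicate 3, that of Wdr43 also without low-yield replicate 1 or low-yield replicate 2 and in a fit of the 2 groups alone. The group 1 call of Wdr43 ended without any library but mutant replicate 2, and the low-yield call of Utp4 without low-yield replicate 2.

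Rrp9, which binds the U3 snoRNA, rose in group 1 (0.41, SE 0.08, adjusted p 0.00653) and had a wide error in the group 2 mutant (0.29, SE 0.18). With the replicate block it was called in the low-yield mutant (0.38, SE 0.10, adjusted p 0.018 by edgeR) but not in the group 2 mutant (0.31, SE 0.10). Without the block neither was called. Imp4, Mphosph10 and Imp3 form a complex that joins U3 to the precursor. Imp4 rose in group 1 (0.28, SE 0.07, adjusted p 0.0187) as well as in low-yield mutants (0.33, SE 0.08, adjusted p 0.0169), Mphosph10 in the low-yield mutant (0.37, SE 0.11, adjusted p 0.0353), and Imp3 was near 0 in all 3 (0.06, -0.03 and 0.01). Nop14 was above 0 (0.22, 0.19 and 0.25) and called only with the replicate block or some other alternatives, and its partner Noc4l lay at -0.07, -0.07 and 0.02. Utp3 was below 0 throughout (-0.10, -0.14 and -0.02), not called. The group 1 calls of Rrp9 and Imp4 ended without mutant replicate 3, that of Imp4 also without wildtype replicate 1 or 2. For the low-yield mutant those of Imp4 and Mphosph10 ended without wildtype replicate 3, low-yield replicate 1 or low-yield replicate 2, that of Mphosph10 also without wildtype replicate 2 or mutant replicate 3 and in a fit of the 2 groups alone.

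Late maturation carries the small subunit out of the nucleus and trims its rRNA. Of 6 genes, Rrp12 and Nob1 were called for group 1 and for the low-yield mutant, and Rrp12 alone in the group 2 mutant. Of all genes 5.79%, 6.68% and 3.32% were called higher in this order. Rrp12, a carrier for export of the precursors, had 142, 151 and 146 CPM in wildtype and 233, 197 and 235 in mutant libraries of group 1. Group 2 showed 288, 254 and 234 for wildtype, 359, 295 and 363 for mutant and 354, 364 and 340.4 for low-yield libraries. Its mutant libraries lay above the wildtype libraries in both groups, though by a narrow gap between wildtype library 1 and mutant library 2 of group 2. By edgeR the log2 fold change was 0.60 (SE 0.07, adjusted p 0.000543) in group 1, 0.39 (SE 0.10, adjusted p 0.0246) for the group 2 mutant and 0.45 (SE 0.10, adjusted p 0.00673) for its low-yield mutant. In the group 2 mutant the call ended without wildtype replicate 2, wildtype replicate 3, mutant replicate 1 or mutant replicate 3, with adjusted p up to 0.131.

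Nob1, the endonuclease that makes the end of the mature small subunit rRNA, had 92.4, 89.3 and 93.1 CPM in wildtype and 117, 114 and 129 in mutant libraries of group 1. Among group 2 libraries the wildtype had 94.6, 77.9 and 74.7, the mutant 118, 90.1 and 109 and the low-yield mutant 115, 112 and 99.0. Group 1 and the low-yield mutant were clear of wildtype, and wildtype library 1 of group 2 overlapped the mutant libraries. The log2 fold change was 0.39 (SE 0.07, adjusted p 0.003) in group 1, 0.36 (SE 0.11, adjusted p 0.0712) for the group 2 mutant and 0.40 (SE 0.11, adjusted p 0.0303) for its low-yield mutant, where the call ended without wildtype replicate 2, wildtype replicate 3, low-yield replicate 1 or low-yield replicate 2. Tsr1, Ltv1, Bysl and Tsr2, the last of which carries the ribosomal protein Rps26, were above 0 in all 3 comparisons and called in none as fitted here. Their log2 fold changes ran from 0.07 (Tsr1 in group 1) to 0.28 (Ltv1 in the low-yield mutant). The replicate block called Ltv1 in the low-yield mutant and Tsr2 over both groups.

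**Figure D2:**
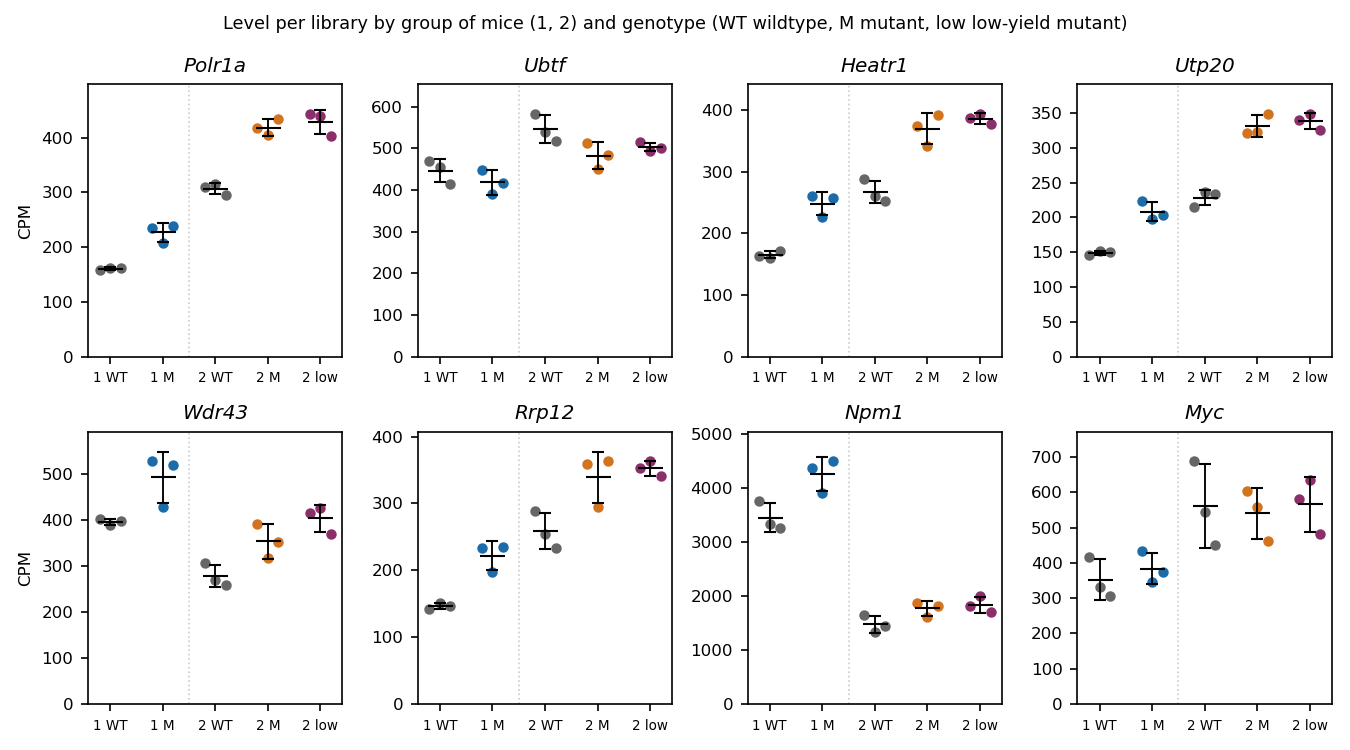
CPM (y axis, from 0) in each library for 8 members, by group of mice and genotype; points are single libraries in the order of replicates 1 to 3, and the black marks are the mean and SD of 3. For Polr1a, Heatr1, Utp20, Wdr43 and Rrp12 each mutant library lies above each wildtype library of its group, for Npm1 there is overlap in group 2, for Ubtf the mutant libraries of group 2 lie below wildtype, and for Myc the groups overlap.

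Against wildtype, all 13 large subunit genes were above 0 in every comparison. Called higher were 3 in group 1, 1 in the group 2 mutant, 2 in the low-yield mutant and 7 over both groups. Of all genes 5.79%, 3.32%, 6.68% and 9.8% were called higher in these. Gnl3l, a nucleolar GTPase, had 64.3, 67.1 and 69.7 CPM in wildtype and 91.3, 76.9 and 95.4 in mutant libraries of group 1. Levels in group 2 were 108, 102 and 113 for wildtype, 131, 123 and 127 for mutant and 134, 138 and 117 for low-yield libraries. The groups were separate in all 3 comparisons. Its log2 fold change was 0.39 (SE 0.08, adjusted p 0.0112) in group 1, 0.24 (SE 0.08, adjusted p 0.106) for the group 2 mutant and 0.27 (SE 0.08, adjusted p 0.0488) for its low-yield mutant. Its relatives Gnl2 and Gnl3 (nucleostemin) had 0.17, 0.23 and 0.29, and 0.02, 0.08 and 0.17, none called in these comparisons as fitted here. The replicate block called Gnl2 in the low-yield mutant.

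Nip7, a factor of large subunit rRNA processing, had 99.1, 100.2 and 97.8 CPM in wildtype and 131, 113 and 130.1 in mutant libraries of group 1, which were separate (0.33, SE 0.07, adjusted p 0.00993). Its group 2 levels were 80.2, 57.8 and 57.2 for wildtype, 85.5, 67.4 and 80.5 for mutant and 90.1, 79.5 and 84.3 for low-yield libraries. There wildtype library 1 stood well above the other two and overlapped both mutant groups (log2 fold changes 0.26 and 0.38). The group 1 calls of Nip7 and Gnl3l ended without mutant replicate 3, and that of Gnl3l also without wildtype replicate 2. The low-yield call of Gnl3l ended without any of 7 of the 9 libraries of group 2, all but mutant replicate 2 and low-yield replicate 3, and in a fit of the 2 groups alone.

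Sbds frees the new large subunit for its first round of translation and is mutated in Shwachman-Diamond syndrome. It had 116, 109 and 113 CPM in wildtype and 132, 127 and 123 in mutant libraries of group 1. In group 2 it had 46.9, 54.9 and 51.8 for wildtype, 66.6, 60.2 and 64.1 for mutant and 68.6, 63.5 and 69.0 for low-yield libraries. Each mutant library was above each wildtype library of its group. On the log2 scale the fold change was 0.18 (SE 0.06, adjusted p 0.0795) in group 1, 0.31 (SE 0.09, adjusted p 0.0491) in the group 2 mutant, a call that ended on leaving out any of the 9 libraries and in a fit of the 2 groups alone, and 0.39 (SE 0.09, adjusted p 0.00975) in the low-yield mutant, where it ended without low-yield replicate 1 only.

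Pes1, Bop1 and Wdr12 form a complex of large subunit processing and did not pass together. Pes1 rose in group 1 (0.28, SE 0.07, adjusted p 0.0181), a call that ended without wildtype replicate 2, wildtype replicate 3 or mutant replicate 3, while Bop1 had 0.18, 0.14 and 0.27 and Wdr12 0.10, 0.09 and 0.22. Over both groups Ebna1bp2 (0.21, SE 0.07, adjusted p 0.0356), Noc3l (0.19, SE 0.06, adjusted p 0.026) and Gnl2 (0.20, SE 0.07, adjusted p 0.0499) were also called, and each lost its call on leaving out any of 6 (Noc3l) or 8 (Ebna1bp2, Gnl2) of the 12 libraries. Noc2l, Rrp1b and Nop16 were not called as fitted here, and lay between 0.04 (Noc2l in group 1) and 0.29 (Rrp1b in the low-yield mutant). With the replicate block Nop16 was called over both groups (0.19, SE 0.06, adjusted p 0.0179 by edgeR), and Nop16 and Rrp1b in the low-yield mutant.

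Myc RNA did not separate mutant from wildtype. It had 417, 332 and 306 CPM in wildtype and 432, 345 and 373 in mutant libraries of group 1. Group 2 showed 689, 544 and 451 for wildtype, 602, 559 and 461 for mutant and 582, 634 and 480.3 for low-yield libraries. The groups overlapped in every comparison, and in each wildtype group library 1 was the highest and library 3 the lowest. By edgeR the log2 fold change was 0.12 (SE 0.13, adjusted p 0.603) in group 1, -0.05 (SE 0.16, adjusted p 0.898) in the group 2 mutant, 0.01 (SE 0.16, adjusted p 0.975) in the low-yield mutant and 0.04 (SE 0.12, adjusted p 0.873) over both groups. With the replicate block its error was smaller, and it was 0.13 (SE 0.07, adjusted p 0.187) in group 1 and 0.05 (SE 0.05, adjusted p 0.588) over both groups. It was called under no alternative run. Its sign turned in group 2 without wildtype replicate 1 or mutant replicate 3, in the low-yield mutant without wildtype replicate 2 or 3 or low-yield replicate 1 or 2, and over both groups without group 1 wildtype replicate 3, group 1 mutant replicate 1 or group 2 wildtype replicate 3.

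Of 10 tested genes of the Myc network, which holds Max, proteins that pair with it and the related Mlx and Mlxip, Mxd1 and Mxd3 fell over both groups (log2 fold change -0.75 and -0.90). Both encode repressors that compete with Myc for Max, and Max itself was at 0.01 (SE 0.05). Mlx rose (0.23). The other 7 were not called over both groups, and of them Mxd4, another of these repressors, fell in the low-yield mutant (-0.54, SE 0.13, adjusted p 0.0149). Of 20 known Myc targets outside ribosome assembly, 8 were called in group 1, 3 in the group 2 mutant, 7 in the low-yield mutant and 8 over both groups, all higher. Of all genes 5.79%, 3.32%, 6.68% and 9.8% were called higher in these. The called targets include Ccnd2, a D-type cyclin (0.80), the arginine methyltransferase Prmt5 (0.46) and the mitochondrial chaperonin Hspd1 (0.38), all over both groups. The median of the 20 was 0.14 over both groups, beside 0.00 for all genes.

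Assembly factors beyond the 53 leaned the same way. Of all genes 5.79% were called higher in group 1, 3.32% in the group 2 mutant, 6.68% in the low-yield mutant and 9.8% over both groups. Of 38 tested other small subunit factors 13 were called in group 1, 4 in the group 2 mutant, 15 in the low-yield mutant and 19 over both groups, none lower, with Wdr3 (0.36), Pwp2 (0.40) and Nol6 (0.34), all processome proteins, leading over both groups. Of 46 other large subunit factors the counts were 6, 2, 10 and 14 higher, and over both groups 2 lower. Ddx27, a helicase (0.35), Spata5, a recycling ATPase (0.36), and Urb1 (0.35) led these.

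Shorter lists stand next to them in the pathway, beside the same shares of all genes called higher (5.79%, 3.32%, 6.68% and 9.8%). Over both groups 9.8% of all genes were called lower. Of 17 other genes of RNA polymerase I and III, 3, 0, 3 and 5 were called higher, with Tcof1 (treacle) at 0.30 and Gtf3a at 0.19, and over both groups 1 was called lower, the polymerase III factor Brf1 (-0.20). Of 17 other modification genes 3 were higher and 2 lower over both groups. Nufip1 (0.38), a snoRNP assembly factor, and Ftsj3 (0.35), an rRNA methyltransferase, rose, and Mrm1 (-0.38), which acts on mitochondrial rRNA, fell. Of 14 genes of the RNA exosome, which trims rRNA ends, 4 were higher over both groups, among them Exosc9 (0.33), Dis3 (0.23) and Mtrex (0.20). Of 4 genes of the 5S RNA particle and its placing into the subunit, Rpl11 among them, Rpf2 rose over both groups (0.29).

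**Figure D3:**
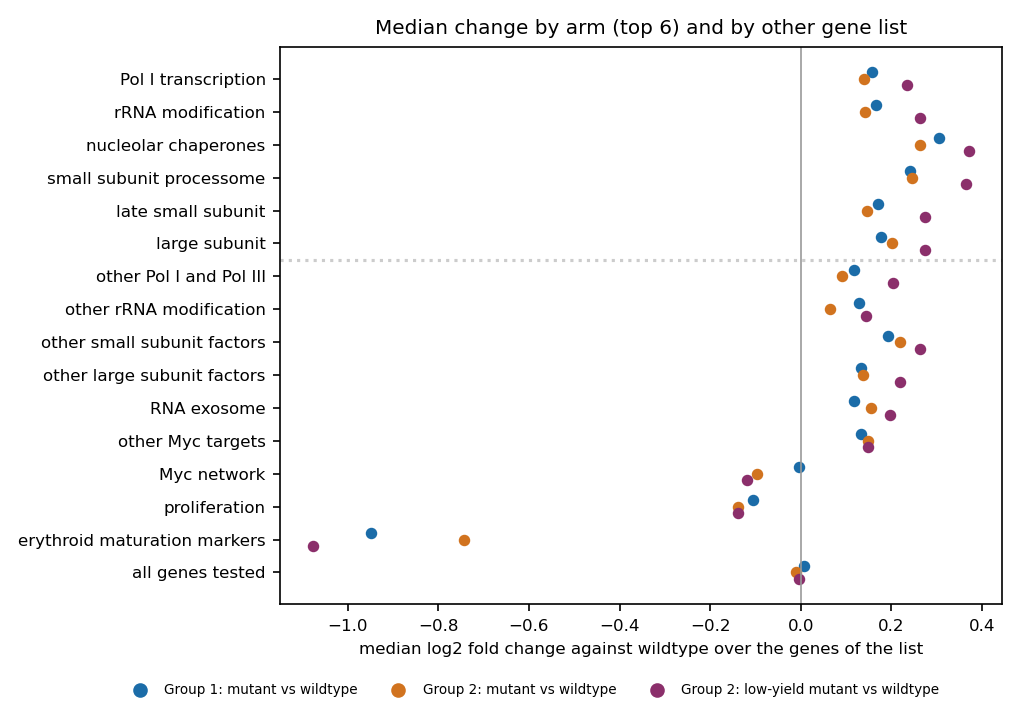
Median log2 fold change against wildtype (x axis) over the genes of each arm of the 53 members (above the dotted line) and of each other list (below it), for the 3 comparisons with wildtype; each point is a median of edgeR estimates with no test. All 6 arms lie to the right of 0, the proliferation list lies slightly to the left, and the erythroid maturation list lies far to the left.

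The difference over the 53 genes was uneven between libraries. For each library the median over the 53 genes of its log2 level minus the wildtype mean was 0.27, 0.05 and 0.24 in the mutant libraries of group 1 and 0.05, -0.02 and -0.04 in its wildtype libraries. In group 2 it was 0.30, 0.05 and 0.20 in mutant, 0.31, 0.31 and 0.17 in low-yield mutant and 0.15, -0.06 and -0.09 in wildtype libraries. In both groups mutant library 2 was the lowest mutant and wildtype library 1 the highest wildtype, and in group 2 that wildtype library lay above mutant library 2. The same median over all genes lay between -0.02 and 0.00. The summed level of the 53 genes ran from 20393 to 22731 CPM in wildtype and from 22082 to 26437 in mutant libraries of group 1, and Ncl and Npm1 alone made up 9015 to 10389 and 10033 to 12402 CPM of these sums. In group 2 it ran from 13438 to 15779 in wildtype, 15029 to 17769 in mutant and 16246 to 18614 in low-yield libraries, with wildtype library 1 above mutant library 2.

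**Figure D4:**
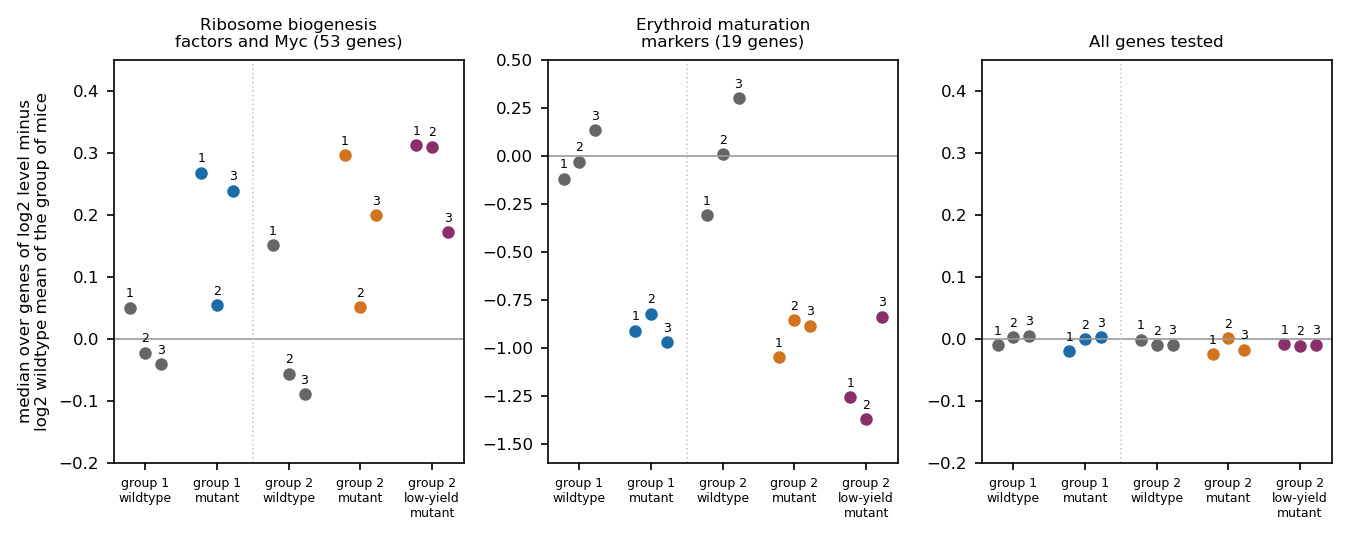
Median over the genes of a list of the log2 level in a library minus the log2 wildtype mean of its group of mice (y axis), for each of the 15 libraries, numbered by replicate; left the 53 members, middle 19 erythroid maturation markers, right all genes tested (the middle panel has its own scale). Members lie between 0.05 and 0.31 in mutant libraries, maturation markers between -1.37 and -0.82, and all genes near 0.

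Markers of cell state moved with genotype as well. The 19 erythroid maturation markers summed to between 7011 and 9228 CPM in wildtype and 4000 and 4125 in mutant libraries of group 1. In group 2 the sums were 9437 to 17418 in wildtype, 6038 to 7324 in mutant and 5076 to 6910 in low-yield libraries. Of the 19, 15, 8 and 12 were called lower in the 3 comparisons and 15 over both groups, none higher, among them Tspo2 (-0.85), Rhd (-0.71) and Fech (-0.55). Among the 10 progenitor markers 7 fell over both groups, Klf1 (-0.50) and Epor (-0.37) first, and Kit, the receptor of early progenitors, rose (0.38). Of 16 proliferation genes 7 fell and 0 rose over both groups, with Pcna (-0.37), Mcm7 (-0.36) and Mcm6 (-0.29) leading. The part of these shifts in the difference over the 53 genes was not tested. In bulk RNA fewer cells of a type and less RNA per cell cannot be told apart.

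Markers of other cell types were present at different levels and partly shifted. Granulocyte markers (11 genes) summed to between 103 and 796 CPM in wildtype and 258 and 1480 in mutant libraries of group 1, and to 17.98 to 36.2, 138 to 230.03 and 177 to 381 in wildtype, mutant and low-yield libraries of group 2. In group 2, 6 of 10 tested were called higher in the mutant and 10 of 10 in the low-yield mutant. Megakaryocyte markers (8) summed to 14.8 to 27.6 CPM in wildtype and 20.6 to 39.7 in mutant libraries of group 1, and to 13.6 to 15.2, 20.9 to 22.1 and 32.5 to 40.8 in wildtype, mutant and low-yield libraries of group 2. Itga2b of this list was higher over both groups (0.77). Endothelial markers (7) summed to 2.17 to 4.40 and 3.91 to 9.67 CPM in group 1 and to 0.90 to 1.90, 3.56 to 5.87 and 6.45 to 10.01 in group 2, in the same order, with Pecam1 higher (1.60). These 2 lists overlapped between genotypes in group 1, while their wildtype, mutant and low-yield libraries were separate in group 2. Early progenitor markers (10) summed to 8.12 to 28.4 and 13.8 to 71.8 CPM in group 1 and to 9.25 to 18.8, 18.1 to 29.9 and 25.4 to 33.8 in group 2, with Gata2 (1.48) and Meis1 (0.58) higher, and in group 2 only the low-yield libraries were clear of wildtype. Of the 10 macrophage markers, Cd5l and Timd4 were at 0 in all libraries, and the 10 summed to at most 9.75 CPM. In the low-yield mutant 1 of them was above 1 CPM in every library. Adgre1 of this list had log2 fold changes of 3.95 in the group 2 mutant and 3.03 in the low-yield mutant. Neither was called (adjusted p 0.0844 and 0.212 by edgeR). Csf1r had -0.65 and 0.54 there, also not called. Hepatocyte markers (11) summed to at most 88.4 CPM, with 3 called lower in group 1. Their part in the result was not tested.

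No member was called between the low-yield mutant and the other mutant of group 2. There 0 of all genes (0%) and 0 members were called by edgeR, with 480 genes and 0 members at an unadjusted p under 0.05, and DESeq2 called 6 genes and 0 members. The log2 fold change was above 0 for 51 of the 53, with a median of 0.07 that was 0.01 without mutant replicate 2, where 31 were above 0. Imp4 and Wdr12 were higher in each low-yield library than in each mutant library, 2 of 53 beside 4.07% of all genes, and 0 members were lower in each (4.15% of all genes). The largest differences were those of Ncl (0.20, SE 0.10), Rrp1b (0.19, SE 0.12) and Wdr43 (0.19, SE 0.09).

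By counting libraries alone, 23 members had each mutant above each wildtype library in group 1 (15% of all genes did) and 0 the reverse (16.6% of all genes). In the group 2 mutant 16 did (11.5% of all genes), and Ubtf and Taf1b lay wholly below wildtype (11.8% of all genes did). For the low-yield mutant 26 did (15.3% of all genes), and Ubtf was again wholly below, 1 of 53 beside 14.6% of all genes. The 26 members called in no comparison with wildtype as fitted here, the combined one included, of which 16 were called under some alternative (15 with voom), were Myc, Ubtf, Taf1b and Polr1b, the H/ACA proteins Dkc1, Nhp2, Nop10 and Gar1, Nop56, Dimt1, Emg1, Nop14, Utp15, Utp3, Noc4l, Imp3, Tsr1, Tsr2, Ltv1, Bysl, Bop1, Wdr12, Rrp1b, Noc2l, Gnl3 and Nop16.

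Some features of the genes bear on how their counts can be read. Polr1a, Utp20 and Heatr1 are among 15 members with over 5000 bp of exon, and 7, 3 and 9 of these were called in the 3 comparisons, beside 8, 4 and 9 of the 38 shorter members. Over all genes the longer class had 16.1%, 8.03% and 16.1% called and the shorter 10.4%, 5.28% and 10.6%. Introns of 7 members (Nop56, Nop58, Dkc1, Ncl, Wdr43, Tsr1 and Gnl3) hold 21 annotated snoRNA genes. Of these hosts 1, 1 and 3 were called, with a median log2 fold change of 0.07 in group 1, 0.15 in the group 2 mutant and 0.27 in the low-yield mutant, beside 0.18, 0.20 and 0.27 for the other 46. Exons of 22 members overlap a gene on the opposite strand, and whether counting used strand is not given in the sources used here. Of these 22, 8 were called over both groups, beside 17 of the 31 without such overlap, with medians of 0.18 and 0.19.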

How the data were processed

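The authors deposited expected counts, whole and not normalised, for each gene; the submitters' processing notes name cutadapt 2.3, STAR 2.7.8a, RSEM 1.3.3 and GRCm38. Whether strand was used and which annotation release was counted are not given in the sources used here. Rows of reporter sequences (5 in group 2, 4 in group 1, with 1 and 4 counts) were left out. The test was edgeR 4.0.16 (R 4.3.3) with filterByExpr, TMM and robust quasi-likelihood F tests (two-sided), Benjamini-Hochberg adjusted over all genes tested, threshold 0.05. Group 2 was fitted over its 9 libraries. Both groups of mice were combined with the group as a block. Errors are standard errors (SE) or SD over 3 libraries. The members, gene lists and tests were chosen with earlier results of these data known. Values per library are given for Myc, for up to 2 called members of an arm in each comparison with the smallest adjusted p and for members called lower; other genes are named from each list by smallest adjusted p, up to 3. Ubtf, Wdr43 and other members were described outside that rule after their values were seen. In group 1 same-numbered libraries deviated together (correlations 0.56, 0.24 and 0.23), though wildtype 3 and mutant 2 also gave 0.32. The labels do not say that the numbers pair the samples, so the replicate block is only an alternative. Gene positions are GENCODE M21, promoters RefSeq on GRCm38.p6. Alternatives were DESeq2 1.42.0, limma 3.58.1 voom, other scalings and filters, the replicate block, summed copies (at least 95% identity over 80%) and leaving out each library. The main edgeR fit was tried on simulated counts for group 1, the group 2 mutant, both groups combined and the interaction. The low-yield comparisons and the alternatives were not simulated.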

Additional observations from a re-analysis of the deposited data

How the results depend on the processing

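The direction held: the members' median stayed above 0 in every alternative of the 3 comparisons with wildtype and of the combined one, and 45 to 51 members lay above 0. The numbers called moved. In group 1 members called were 25 with DESeq2, 25 with upper-quartile scaling, 27 with a mean CPM of at least 5, 24 with voom and 23 with the replicate block, while all genes called went from 1766 of 14048 to 2271, 1808, 1926 (of 9343 tested), 2143 and 2863. In the group 2 mutant they were 11 with DESeq2, 14 by library size only, 11 with mean CPM at 5 or more and 24 with voom, while all genes called went from 942 of 15024 to 1452, 990, 871 (of 9377) and 2000, and a fit of the 2 groups alone called 5 members. In the low-yield mutant they were 28 with upper-quartile scaling, 31 by library size only and 40 with voom, while all genes called went from 1884 to 1960, 1962 and 3399; they were 16 in a fit of the 2 groups alone and 17 with no filter or in legacy mode, and these last gave 22 over both groups. Same-numbered wildtype and mutant libraries of group 2 gave correlations of deviations of 0.32, 0.22 and 0.02. For wildtype and low-yield libraries these were 0.13, -0.10 and 0.04. The labels do not say whether the numbers pair the samples there. The replicate block gave 11 mutant and 32 low-yield calls among members and 1309 and 2331 over all genes. Low-yield against mutant gave 6 genes with DESeq2 and 4 with voom. The interaction gave 13 with DESeq2 and 5 with the replicate block. The block ended no call of a member, and over both groups it called 33, Ubtf lower, and 3889 of all 15954 genes (3128 without it). The cause of these moves was not tested.

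On leaving out 1 library at a time, members called ran from 5 to 30 in group 1, 3 to 17 in the group 2 mutant, 7 to 36 in the low-yield mutant, 16 to 33 over both groups and 0 to 0 for low-yield against mutant and the interaction. All genes called ran from 753 to 1729, 425 to 1323, 900 to 2395, 2526 to 3629, 0 to 22 and 2 to 3 in this order. The members' median ran from 0.15 to 0.24, 0.14 to 0.26, 0.23 to 0.36, 0.17 to 0.23, 0.01 to 0.12 and -0.08 to 0.06. Myc ran from -0.19 to 0.13 in the group 2 mutant and from -0.13 to 0.19 in the low-yield mutant. It turned sign in the group 2 mutant without wildtype replicate 1 (0.13) or mutant replicate 3 (0.05). In the low-yield mutant it did so without wildtype replicate 2 (-0.01), wildtype replicate 3 (-0.13), low-yield replicate 1 (-0.01) or low-yield replicate 2 (-0.07), and over both groups without group 1 wildtype replicate 3 (-0.02), group 1 mutant replicate 1 (-0.020) or group 2 wildtype replicate 3 (-0.02). At these depths all 53 members passed the filter on low counts, and the number of libraries, 3 a group, limits the precision.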
